A study of Mus musculus with 6 samples.

Results

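The genes described here are 9 members of the interleukin-6 (IL-6) family pathway in mouse left ventricle. They were chosen by name, with earlier results of these libraries known, from a gene table of 34745 genes. The ligands are Clcf1, Il6, Il11 and Lif, the receptor genes Osmr, Il6st, Lifr and Il11ra1, and Socs3 is the pathway's feedback inhibitor. The libraries hold total RNA of left ventricles from male wild-type C57BL/6 mice, given as 8 weeks old. One group had transverse aortic constriction (TAC), a ligature around the aortic arch that raises the pressure load on the left ventricle. The other had a sham operation without the ligature, and tissue was taken 6 weeks later. 3 libraries are labelled TAC and 3 Sham, with 17399510 to 28401399 counts over genes. Nothing in the labels ties each library to its own animal, so the errors given measure the spread between these libraries, which may be technical.

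Cytokines of the IL-6 family signal through receptor complexes built around gp130, the shared receptor chain encoded by Il6st. LIF and CLCF1 bring gp130 together with the LIF receptor, mouse oncostatin M brings it together with the oncostatin M receptor, and IL-6 and IL-11 first bind a ligand-specific alpha receptor. Janus kinases on these chains activate STAT3 and the SHP2-ERK route, and SOCS3, itself a STAT3 target, binds gp130 and shuts the signal down. In the heart, gp130 signalling is known for cardiomyocyte survival and hypertrophy, and IL-11 and oncostatin M are known to act on fibroblasts and cardiomyocytes.

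The labels need a caution before any direction is read. Nppa, the atrial natriuretic peptide gene that pressure overload is known to raise, had 83.9 ± 17.0 CPM (counts scaled to library size with TMM factors; SD, n = 3) under the TAC label and 1087 ± 704 under the Sham label (edgeR quasi-likelihood adjusted p = 0.0222). Acta1, the skeletal alpha-actin gene of the fetal programme, stood at 403 ± 263 against 3791 ± 1079 CPM (adjusted p = 0.0448). Nppa missed the threshold without TAC 1 (0.0817), TAC 2 (0.0764) or TAC 3 (0.0719) and Acta1 without any single library but TAC 3 (0.0504 to 0.121), with the sign kept throughout. Nppb, the related B-type natriuretic peptide gene, had 83.5 ± 55.6 against 251 ± 149 CPM and missed the threshold (adjusted p = 0.191). Nppa and Acta1 go against the labels, so TAC and Sham name labels only, and each direction is that of the labels. The 8 cardiomyocyte markers summed to 96080 to 125300 CPM over the 6 libraries.

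Promoter sequence was read for 8 of the 9 genes, because several of them had their highest levels in the same libraries. The windows are the 250 bases before each RefSeq transcription start (GRCm38.p6), 11 windows in all, and Clcf1 had no entry. Each was searched on both strands for TTCNNNGAA, the palindromic core that STAT factors are known to bind, and for TGANTCA, the palindromic core bound by AP-1 factors. The STAT core stood in 1 of the 11 windows, that of Socs3, against 7.02% of 32851 windows of the same length over all genes. The AP-1 core stood in 3 windows, those of the ligand genes Il6, Il11 and Lif, against 6.75% of all windows. The 4 windows that hold a core are shown 5′ to 3′ on the gene's own strand, with the core in capitals; that of Il11 is the second of its 2 windows.
Socs3, chr11:117969367-117969616, minus strand: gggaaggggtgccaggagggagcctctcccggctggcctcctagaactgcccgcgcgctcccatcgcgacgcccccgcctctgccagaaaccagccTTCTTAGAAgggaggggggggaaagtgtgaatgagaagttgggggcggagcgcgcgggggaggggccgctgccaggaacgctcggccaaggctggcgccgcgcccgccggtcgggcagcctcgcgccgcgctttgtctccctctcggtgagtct
Il6, chr5:30012864-30013113, plus strand: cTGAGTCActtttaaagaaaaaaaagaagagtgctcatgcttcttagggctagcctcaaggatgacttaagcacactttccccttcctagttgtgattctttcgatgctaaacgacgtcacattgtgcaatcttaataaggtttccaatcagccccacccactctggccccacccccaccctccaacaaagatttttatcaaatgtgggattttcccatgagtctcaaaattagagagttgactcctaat
Il11, chr7:4778142-4778391, minus strand: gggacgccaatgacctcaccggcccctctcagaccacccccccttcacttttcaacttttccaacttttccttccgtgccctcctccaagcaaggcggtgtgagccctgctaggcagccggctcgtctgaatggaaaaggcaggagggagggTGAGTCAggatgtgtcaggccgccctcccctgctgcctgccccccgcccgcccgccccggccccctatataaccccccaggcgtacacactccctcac
Lif, chr11:4257318-4257567, plus strand: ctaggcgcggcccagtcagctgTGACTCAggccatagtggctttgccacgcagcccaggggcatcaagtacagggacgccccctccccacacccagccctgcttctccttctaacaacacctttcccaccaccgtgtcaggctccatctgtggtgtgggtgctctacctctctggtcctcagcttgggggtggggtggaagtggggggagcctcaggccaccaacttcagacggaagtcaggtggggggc
The Socs3 core, TTCTTAGAA, lies 154 to 146 bases before the start. The AP-1 core lies 98 to 92 bases before the start in Il11, 228 to 222 in Lif and 249 to 243 in Il6. No window of Osmr, Il6st, Lifr or Il11ra1 holds either core. Those windows differ in base composition: the first Lifr window is 82.4% G and C with 43 CpG pairs, the Il6st window 66.0% with 26 and the Osmr window 66.0% with 18. The starts are those of RefSeq: by the deposited gene intervals, the Socs3 window, the Osmr window and the Il11 window shown lie inside their genes. So do the second Lifr window and both Il11ra1 windows. A match says only that these letters are present, and no binding was measured here.

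6 of the 9 genes, Clcf1, the 4 receptor genes and Socs3, passed the low-count filter and were tested, and Il6, Il11 and Lif did not pass it. None of the 6 was past an adjusted p of 0.05 in edgeR's quasi-likelihood test, where 1.43% of 15198 genes tested were past it (1.11% higher in the Sham libraries and 0.322% higher in the TAC libraries; 168 and 49 genes, or 296 and 42 with totals unscaled). At an unadjusted p under 0.05 there were 2 of the 6, Osmr and Lifr, where 20.9% of all genes tested were under it. DESeq2 called 1, Lifr, where it called 7.79% of genes, and limma on log2(FPKM + 0.1) called 0, where it called 1.88%. None was called under the other scalings (1.47% of genes with median-of-ratios scaling, 2.22% with totals unscaled, 1.40% with totals without mitochondrial genes), without the filter (1.96%), with limma on log2(FPKM + 1) (1.85%) or with the replicate block (0.270%). Nor was any called without TAC 1 (0.00%), TAC 2 (0.0645%), TAC 3 (0.142%), Sham 2 (0.155%) or Sham 3 (0.258%). Because the genes were chosen with this contrast known, these counts and the differences below are descriptions, and no p-value is given for a member. Their median log2 difference, labelled TAC minus labelled Sham, was -0.31, and that of all genes tested was 0.01.

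**Figure D1:**
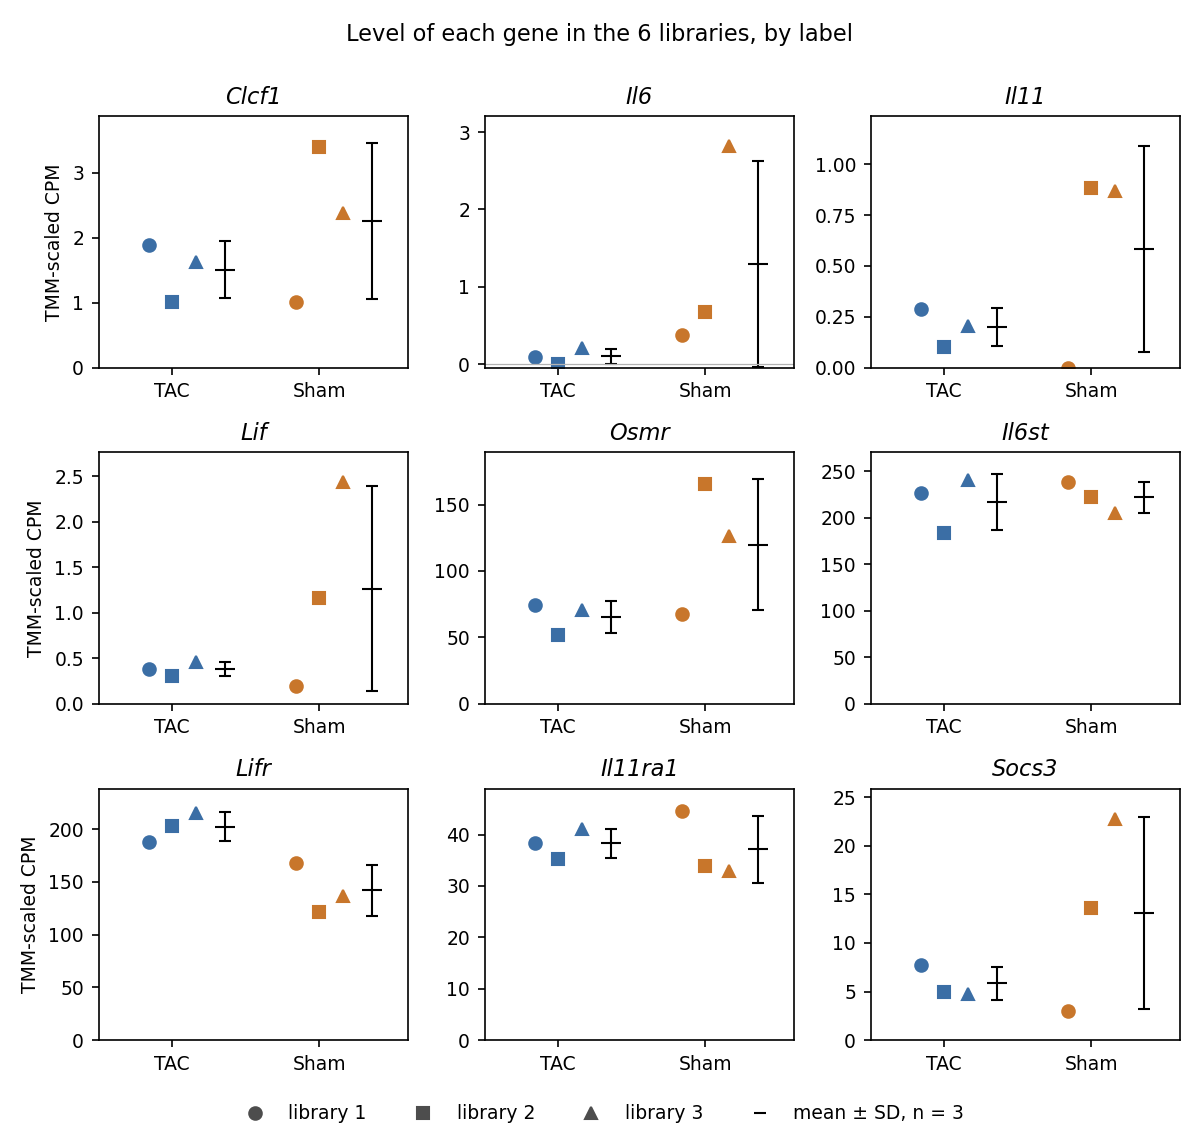
TMM-scaled CPM of each gene in the 3 libraries labelled TAC (blue) and the 3 labelled Sham (orange), with the library number as the marker shape and the mean ± SD in black. For Clcf1, Il11, Lif, Osmr and Socs3, Sham 2 and Sham 3 lie above every TAC point while Sham 1 does not; Lifr is the gene whose TAC points all lie above the Sham points.

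The ligand genes were scarce in all 6 libraries. Il6, the founding cytokine of the family, had 2, 0 and 4 counts in TAC 1, 2 and 3 and 8, 19 and 52 counts in Sham 1, 2 and 3. The 0 allows a level of up to 0.153 CPM, the worth of 3 counts in that library. As levels, these counts ran up to 0.203 CPM in the TAC libraries and from 0.383 CPM in Sham 1 to 2.82 CPM in Sham 3. The groups thus did not overlap, and 13.6% of all genes tested, which leave out Il6, showed this with Sham higher. Sham 3 alone held most of the Il6 counts. The summed scaled counts were 11.7 times as high in the libraries labelled Sham (95% exact interval 5.13 to 32.8, counting error only), and 5.49 times without Sham 3.

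Lif, the leukaemia inhibitory factor gene, had 8, 6 and 9 counts in TAC 1, 2 and 3 and 4, 33 and 45 in Sham 1, 2 and 3. Sham 1 was the lowest of the 6 libraries for this gene and Sham 2 and Sham 3 the highest, so the groups overlapped. The summed scaled counts were 3.16 times as high in the Sham libraries (95% exact interval 1.97 to 5.26, counting error only), 4.35 times without Sham 1 and 1.96 times without Sham 3. Il11, a cytokine known to drive fibroblasts to make matrix, had 6, 2 and 4 counts in the TAC libraries and 0, 25 and 16 in the Sham libraries. As for Lif, Sham 1 was the lowest library and Sham 2 and Sham 3 the highest pair, with Sham 1 at 0 (up to 0.144 CPM) and Sham 2 and Sham 3 at 0.883 and 0.868 CPM. The ratio of its summed scaled counts was 3.03 (1.56 to 6.34), 4.39 without Sham 1 and 2.03 without Sham 2. This interval too covers counting error only.

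Clcf1, which encodes cardiotrophin-like cytokine factor 1, had the highest mean FPKM of the 4 ligands in both groups (0.239 ± 0.0692 in the TAC libraries and 0.374 ± 0.194 in the Sham libraries, n = 3 each). In the Sham libraries it overlapped Il6, and in Sham 3 both Il6 (0.731) and Lif (0.582) exceeded Clcf1 (0.410). Its levels were 1.89, 1.02 and 1.63 CPM in TAC 1, 2 and 3 and 1.004, 3.39 and 2.39 CPM in Sham 1, 2 and 3. Sham 1 (21 counts) and TAC 2 (20 counts) were the lowest libraries, Sham 2 and Sham 3 the highest. The fitted log2 difference was -0.59 (SE 0.45), and it was -0.94 without Sham 1 and -0.15 without Sham 2.

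Among the receptors, Osmr and Lifr differed in opposite directions. Osmr, the oncostatin M receptor gene (chromosome 15, 6813577 to 6874969 on GRCm38), had 74.2, 51.6 and 70.6 CPM in TAC 1, 2 and 3. In Sham 1, 2 and 3 it had 67.6, 166 and 126 CPM. Sham 1 lay inside the TAC range, and Sham 2 and Sham 3 lay well above it. The fitted log2 difference was -0.87 (SE 0.30), a 1.83-fold higher level in the Sham libraries. It was 2.24-fold without Sham 1 and 1.48-fold without Sham 2.

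Lifr, the LIF receptor gene (chromosome 15, 7129559 to 7197489), had 188, 202 and 215 CPM in TAC 1, 2 and 3 and 168, 121 and 136 CPM in Sham 1, 2 and 3. It was the tested member whose groups did not overlap, a pattern that 27.0% of all genes tested showed and 13.4% showed with TAC higher. The fitted log2 difference was 0.51 (SE 0.14), or 1.42-fold higher in the TAC libraries, between 0.41 and 0.65 in the 14 other settings tried. Sham 1 was the Sham library nearest to the TAC range for both genes. Osmr and Lifr are related receptor chains and lie next to each other on chromosome 15, 254589 bases apart. The gene table lists 1 gene between them, with 0 counts.

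Il6st, the gene of the shared chain gp130 (chromosome 13, 112464070 to 112510086), had 227, 184 and 241 CPM in the TAC libraries and 238, 222 and 205 in the Sham libraries. The groups overlapped fully, with a log2 difference of -0.03 (SE 0.13). Il11ra1, the IL-11 alpha receptor gene (chromosome 4, 41699989 to 41769474), had 38.4, 35.3 and 41.1 CPM in TAC 1, 2 and 3 and 44.6, 33.8 and 33.0 CPM in Sham 1, 2 and 3. Its log2 difference was 0.04 (SE 0.15), and its sign changed between settings (-0.03 to 0.19). The deposited interval of Il11ra1 overlaps 6 other genes, among them Galt and Dctn3, and the table holds 3 rows for its near-identical copy Il11ra2. The sources used here do not say how shared reads were counted, so the Il11ra1 level is uncertain.

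**Figure D2:**
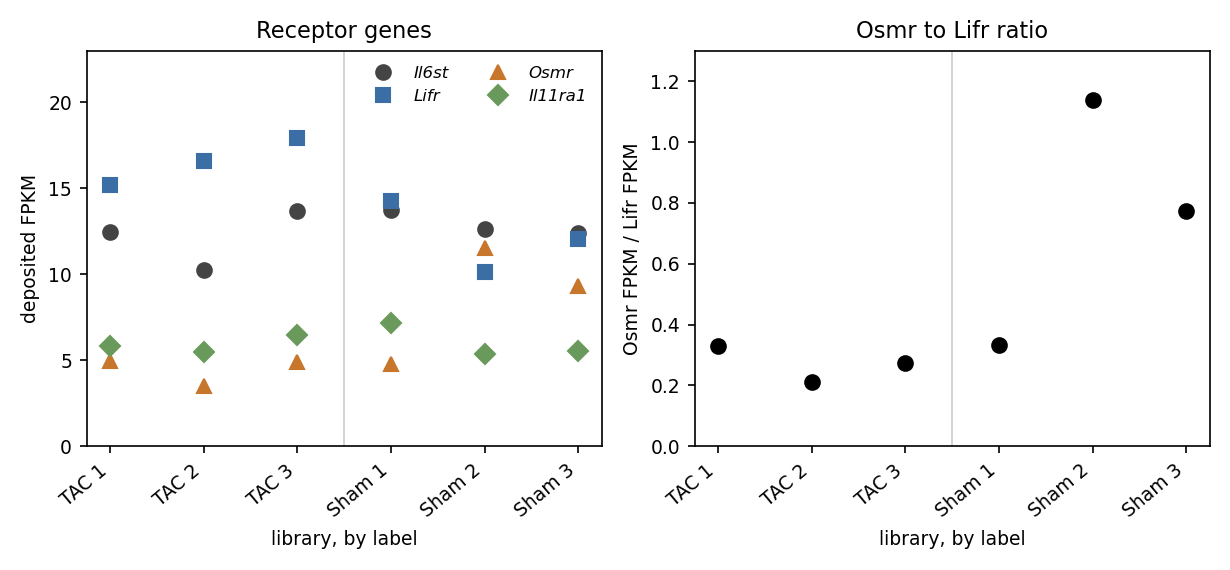
Left, deposited FPKM of the 4 receptor genes in each library; right, the ratio of Osmr to Lifr FPKM in the same libraries. The ratio lies between 0.212 and 0.335 in the 3 TAC libraries and Sham 1, and at 1.14 in Sham 2 and 0.772 in Sham 3.

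Per length, the mean order of the receptor genes differed between the groups, and Sham 1 had the order of the TAC libraries. In the libraries labelled TAC the order by FPKM was Lifr (16.6 ± 1.37), Il6st (12.1 ± 1.72), Il11ra1 (5.93 ± 0.497) and Osmr (4.46 ± 0.818; SD, n = 3), and no neighbours in that order overlapped. In the libraries labelled Sham it was Il6st (12.9 ± 0.726), Lifr (12.2 ± 2.08), Osmr (8.53 ± 3.44) and Il11ra1 (6.01 ± 0.996), and each neighbouring pair overlapped between libraries. In Sham 1 it was Lifr (14.3), Il6st (13.8), Il11ra1 (7.16) and Osmr (4.77), as in the TAC means. The FPKM ratio of Osmr to Lifr was 0.328, 0.212 and 0.273 in TAC 1, 2 and 3 and 0.335, 1.14 and 0.772 in Sham 1, 2 and 3. Sham 2 was the library in which Osmr exceeded Lifr. Socs3 was at 1.74 ± 0.471 FPKM in the TAC libraries, below all 4 receptor genes, and at 4.12 ± 3.20 in the Sham libraries, where its 7.32 in Sham 3 exceeded the 5.54 of Il11ra1. The 4 ligands were all under 1 FPKM in every library.

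Socs3, the feedback inhibitor (chromosome 11, 117966079 to 117970047), had 7.78, 4.99 and 4.78 CPM in TAC 1, 2 and 3 and 3.01, 13.6 and 22.7 CPM in Sham 1, 2 and 3. Its highest and its lowest library were both labelled Sham. The fitted log2 difference was -1.16 (SE 0.60), or 2.23-fold higher in the Sham libraries. It was 3.09-fold without Sham 1 and 1.43-fold without Sham 3. Socs3 had a coefficient of variation of 75.3% over the Sham libraries and 28.7% over the TAC libraries, against medians of 13.8% and 14.7% over all genes tested.

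Several of these values turned on the Sham 1 library. In 5 of the 9 genes (Clcf1, Il11, Lif, Osmr and Socs3) Sham 2 and Sham 3 lay above every TAC library and Sham 1 did not. Of the 6 tested members, 3 showed this order, and 7.80% of all genes tested did. Fitted without Sham 1, all 9 genes passed the filter, as they did without TAC 1, TAC 2 or TAC 3. The filter asks for as many libraries as the smaller group holds. Il6, Il11 and Lif passed it through Sham 2 and Sham 3, where their counts were highest, and not without either of those. In the fit without Sham 1, 3 members were past the threshold: Osmr and Socs3 higher in the Sham libraries and Lifr higher in the TAC libraries. In that fit 2.57% of 15441 genes tested were past it. For Nppa, Sham 1 stood at 772 CPM and Sham 3 at 595, both above the TAC libraries. For Acta1, Sham 1 (3282 CPM) also stood well above the highest TAC library (641 CPM in TAC 1). For Nppb, Sham 1 (137.8 CPM) was level with TAC 1 (137.6 CPM).

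**Figure D3:**
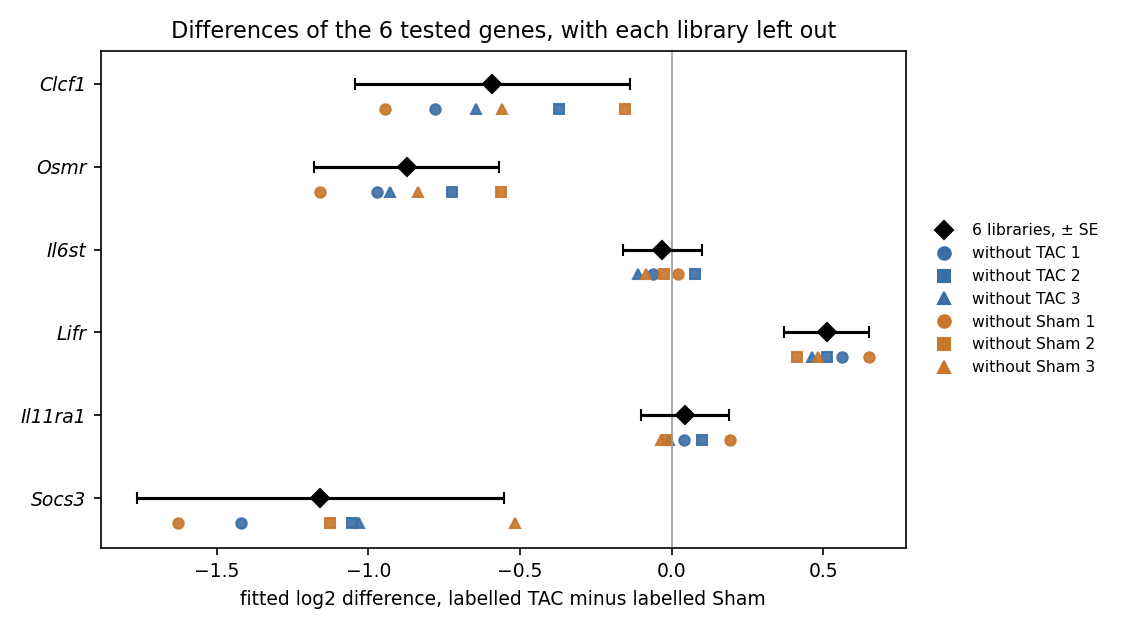
Fitted log2 difference (labelled TAC minus labelled Sham) of the 6 tested genes: black diamonds with SE for all 6 libraries, coloured markers for the fit without 1 library. Lifr stays between 0.41 and 0.65; Socs3 runs from -1.63 without Sham 1 to -0.52 without Sham 3.

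Beyond the 9 genes, 61 others of the pathway are reported in 5 lists, and 49 of them were tested. Of the 7 other ligand genes reported, 2 were tested, Ctf1 and Cntf, both named after their values were seen. Neither passed in edgeR, DESeq2 or limma, and 1, Ctf1, was under an unadjusted p of 0.05, where 20.9% of all genes tested were under it. Ctf1, the cardiotrophin-1 gene, had 2.22, 2.60 and 2.19 CPM in TAC 1, 2 and 3 and 1.48, 0.0706 and 0.543 CPM in Sham 1, 2 and 3. Its groups did not overlap, with the TAC libraries higher, a pattern that 13.4% of all genes tested showed. Its edgeR adjusted p missed the threshold (0.213, with a log2 difference of 1.78, SE 0.72). The log2 difference was 3.05 without Sham 1 and 1.19 without Sham 2. Cntf, the ciliary neurotrophic factor gene, had an adjusted p of 0.834 in edgeR. Osm, the oncostatin M gene, was not tested and had 0 to 7 counts per library, and Ctf2 and Il31 were at 0 in all 6.

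None of the 3 other receptor genes tested passed in edgeR, DESeq2 or limma, and none was under an unadjusted p of 0.05. Il6ra, the IL-6 alpha receptor gene, had 10.8 ± 2.43 CPM in the TAC libraries and 11.1 ± 1.76 in the Sham libraries (adjusted p = 0.945). Cntfr (adjusted p = 0.812) and Il27ra (adjusted p = 0.340) also missed the edgeR threshold.

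Of 11 genes of the kinase, STAT and SHP2 relay, all were tested and none passed in edgeR. At an unadjusted p under 0.05 there were 3, where 20.9% of all genes tested were under it. DESeq2 called 2, where it called 7.79% of genes, and limma 0, where it called 1.88%. Stat5b, a STAT family transcription factor gene, had 72.2 ± 4.34 CPM in the TAC libraries and 54.6 ± 0.753 in the Sham libraries (log2 difference 0.40, SE 0.10, edgeR adjusted p = 0.0857, 0.0184 with DESeq2 and 0.0184 to 0.232 over the other settings). Shc1, an adaptor gene, was at 31.7 ± 0.979 against 42.4 ± 3.75 CPM (log2 difference -0.42, SE 0.11, edgeR adjusted p = 0.106). Ptpn11, the SHP2 gene (-0.39, SE 0.16), and Gab1, its docking protein gene (0.29, SE 0.13), had log2 differences of opposite sign. Stat3, the pathway's main transcription factor gene, was named outside the rule. It had 186 ± 38.5 CPM in the TAC libraries and 223 ± 41.7 in the Sham libraries (log2 difference -0.26, SE 0.19, edgeR adjusted p = 0.472).

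Of 14 other inhibitor genes, 13 were tested and none passed in edgeR. At an unadjusted p under 0.05 there were 2, where 20.9% of all genes tested were under it. DESeq2 called 1, where it called 7.79% of genes, and limma 0, where it called 1.88%. Socs6, a relative of Socs3, had the smallest p, with 24.4 ± 5.94 CPM in the TAC libraries and 37.4 ± 0.958 in the Sham libraries (log2 difference -0.61, SE 0.18, adjusted p = 0.124). The phosphatase genes Ptpn1 (-0.42, SE 0.15) and Ptpn6 (-0.65, SE 0.30) had negative log2 differences, and Pias1, a gene for an inhibitor of STAT binding, a positive one (0.17, SE 0.10). The inhibitor list had a median log2 difference of -0.05, near that of all genes tested.

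**Figure D4:**
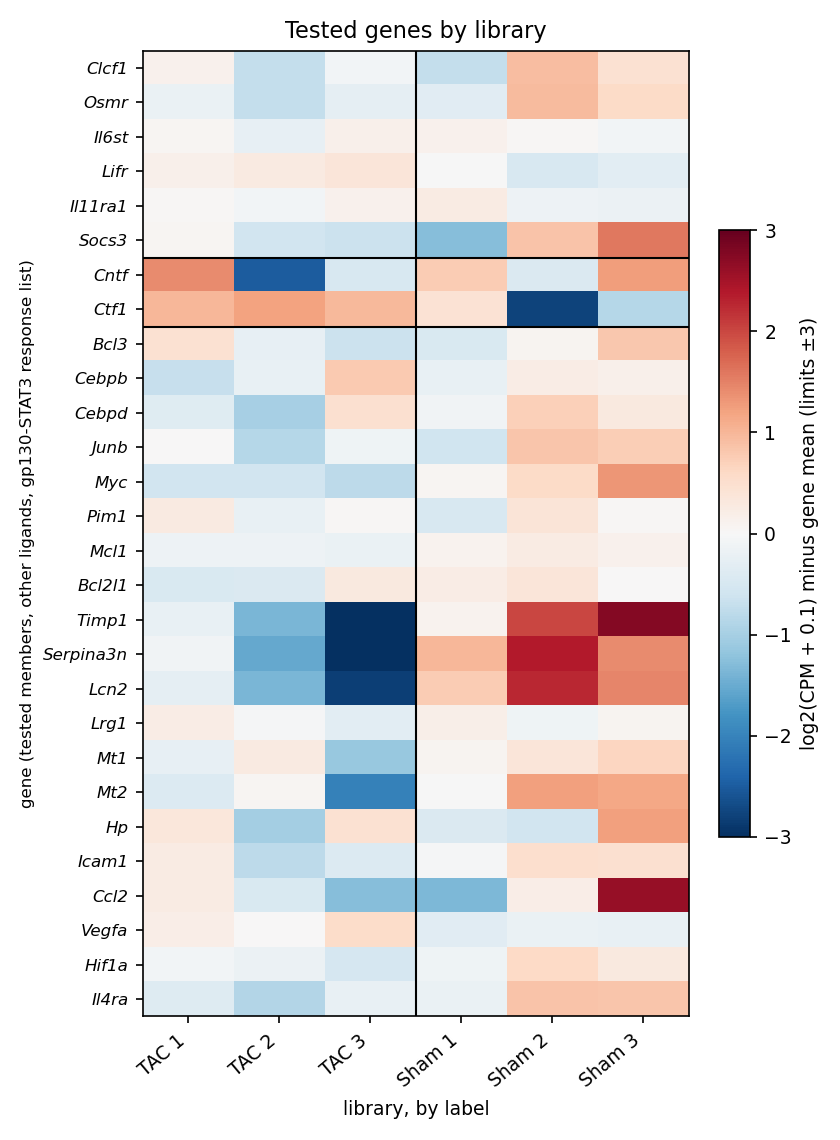
log2(CPM + 0.1) minus the gene's mean over the 6 libraries, for the tested members (top), the 2 other ligand genes tested (middle) and the 20 tested genes known to respond to gp130-STAT3 signalling (bottom); colours stop at 3 units either way. Serpina3n and Lcn2 are red in all 3 Sham libraries, whereas Socs3, Osmr and Junb are red in Sham 2 and Sham 3 and not in Sham 1.

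Genes known to respond to gp130 and STAT3 mostly had higher estimates in the libraries labelled Sham. These were 17 of the 20 tested out of 24, beside 7464 of 15198 over all genes tested. None of the 20 passed in edgeR. At an unadjusted p under 0.05 there were 9, where 20.9% of all genes tested were under it. DESeq2 called 6, where it called 7.79% of genes: 5 higher in the Sham libraries and 1, Vegfa, higher in the TAC libraries (DESeq2 adjusted p = 0.0418). The 5 were Lcn2 (DESeq2 adjusted p = 0.00909), Serpina3n (0.0213), Timp1 (0.0344), Myc (0.00643) and Il4ra (0.0136). limma called 0. The list's median log2 difference was -0.56, beside 0.01 over all genes tested, and it was not tested as a list. Many of these genes also respond to other signals. Lcn2, the lipocalin-2 gene, had 8.75, 4.07 and 1.42 CPM in TAC 1, 2 and 3 and 18.0, 51.0 and 29.3 CPM in Sham 1, 2 and 3 (log2 difference -2.78, SE 0.61, edgeR adjusted p = 0.0699). Serpina3n, an acute-phase protease inhibitor gene, was at 27.6 ± 25.1 against 198 ± 103 CPM (-2.84, SE 0.71, edgeR adjusted p = 0.0932). Timp1, a metalloproteinase inhibitor gene (-3.18, SE 0.82, edgeR adjusted p = 0.0991), and Myc (-1.44, SE 0.34, edgeR adjusted p = 0.0854) also missed the threshold. Without TAC 1, the highest TAC library for the first 3 of these, the log2 difference was -3.58 for Lcn2, -3.86 for Serpina3n and -4.11 for Timp1. Without Sham 2 it was -2.30 for Lcn2 and -2.34 for Serpina3n, and without Sham 3 it was -2.56 for Timp1. Without Sham 1, Timp1 (edgeR adjusted p = 0.0494), Myc (0.0448) and Il4ra (0.039) passed, where 2.57% of all genes tested did. With any other library left out, all 3 missed the threshold. The edgeR adjusted p was then 0.144 to 0.248 for Timp1, 0.1643 to 0.1955 for Myc and 0.158 to 0.312 for Il4ra. Lcn2 and Serpina3n missed the threshold whichever library was left out. The groups did not overlap for 7 of the 20 genes, a pattern that 27.0% of all genes tested showed. In 6 of them Sham was higher (Lcn2, Serpina3n, Timp1, Myc, Mcl1 and Il4ra), against 13.6% of all genes tested. In 1, the angiogenic growth factor gene Vegfa, TAC was higher (log2 difference 0.52). Mcl1, Il4ra and Vegfa were named after their values were seen. Of the 20 genes, 5 (Junb, Mt1, Mt2, Icam1 and Hif1a) had the order seen for Osmr and Socs3, with Sham 2 and Sham 3 above every TAC library and Sham 1 not. Of all genes tested, 7.80% had that order. It was also seen in 2 of the 11 relay genes (Jak2 and Stat3) and in 1 of the 13 inhibitor genes tested (Ptpn1).

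Marker lists of other cells were summed in each library. The 10 fibroblast markers summed to 1645 to 1903 CPM in the TAC libraries and 2842 to 3585 in the Sham libraries, and all 10 had higher estimates in the Sham libraries, with 1, Col1a2, past the threshold. The 8 activated fibroblast markers summed to 97.7 to 190 CPM against 1177 to 2753, and 6 passed, all higher in the Sham libraries. The 12 macrophage markers summed to 210 to 376 CPM against 471 to 508, and none passed in edgeR (8 were under an unadjusted p of 0.05, DESeq2 called 3 and limma 0). Sham 1 stood with the other Sham libraries in all 3 sums, at 3002, 1347 and 473 CPM, while its Osmr level lay inside the TAC range. The 7 neutrophil markers summed to 27.3, 7.23 and 1.83 CPM in TAC 1, 2 and 3 and to 3.88 to 8.69 in the Sham libraries. The sums of the 10 endothelial markers overlapped between the groups (1443 to 1565 against 1309 to 1627 CPM), as did those of the 10 lymphocyte markers, of which Cd3d was at 0 throughout, and of the 5 erythroid markers. The sum of the 8 pericyte and smooth muscle markers overlapped too, but these markers had log2 differences of both signs (-1.04 to 0.71). The groups did not overlap for 3 of the 8 with Sham higher and 1 with TAC higher, against 13.6% and 13.4% of all genes tested. None of those 8 passed in edgeR, 5 were under an unadjusted p of 0.05, DESeq2 called 4 and limma 2. Beside all these marker counts, 7464 of the 15198 genes tested had higher estimates in the Sham libraries, and 20.9% were under that unadjusted p. Of all genes tested, edgeR called 1.43%, DESeq2 7.79% and limma 1.88%. The cardiomyocyte sum was 106800 to 125300 CPM in the TAC libraries and 96080 to 103000 in the Sham libraries. Their part in the levels of the 9 genes was not tested, and in whole tissue fewer cells of a type and less RNA per cell cannot be told apart.

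The genes most like each member over the 6 libraries were read as Pearson's r of log2 CPM among 9831 genes, a description of 6 points that share their library scaling. With so many genes searched over 6 libraries, such values are the top of a long list. Osmr was most like Mmp14 (r = 0.997), Ugdh (0.994) and Cd44 (0.989), which encode a membrane-bound matrix protease, an enzyme that makes the precursor of hyaluronan and the hyaluronan receptor. Lifr was most like Mpped2 (0.998), Ghr (0.996), the growth hormone receptor gene, and Tmem201 (0.996). Socs3 was most like Puf60 (0.994), Tuba1a (0.989) and Hnrnpab (0.986). Il6st was most like Phyhd1 (0.986), Ttc33 (0.968) and Slc38a10 (0.964), and Il11ra1 most like Rabggta (0.989), Rab28 (0.976) and Fnbp1 (0.967). Among the members themselves, Osmr had r = 0.925 with Clcf1, 0.813 with Socs3 and -0.914 with Lifr.

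The deposited table of 43234 long non-coding RNA transcripts holds 1 that lies inside Il6st. This transcript, NONMMUT019330.2 (1398 bases, chromosome 13, 112505440 to 112506837), had 1672, 1289 and 1632 counts in TAC 1, 2 and 3 and 1715, 4 and 1631 in Sham 1, 2 and 3. Its counts equalled 34.4% to 43.1% of the Il6st counts in 5 libraries and 0.0635% in Sham 2, where Il6st itself had 6298 counts. Of 357 transcripts with at least 500 counts in 5 or more libraries, 10 (2.80%) had fewer than 10 counts in the remaining one, 2 of them in Sham 2. The sources used here do not give the strand setting or the treatment of shared reads, so counts of the transcript and of Il6st cannot be separated. The transcript inside Lifr, NONMMUT022666.2, had 683 to 808 counts in the TAC libraries and 433 to 603 in the Sham libraries. That inside Osmr, NONMMUT022660.2, had 40 to 79 against 32 to 70 counts. These transcript counts were not scaled to library size, so the ranges do not compare levels between the groups.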

How the data were processed

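Per the labels' protocols, RNA came from an miRNeasy extraction followed by DNase, and VAHTS reagents were used for the libraries. Whole-number counts per gene and per lncRNA transcript were deposited by the authors, 1 column per library, tied to its group through the column name in each library's description. FPKM values per gene were also deposited by the authors and served for comparing levels between genes. HISAT2 2.0.4, StringTie 1.3.0 and GRCm38 (mm10) are named, with no role, per the submitters' processing notes. The sources used here do not give the counting program, annotation version or strand setting.

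The counts were tested with edgeR 4.0.16 (R 4.3.3) quasi-likelihood over all genes that passed filterByExpr (minimum count 10), with TMM scaling, no covariate, Benjamini-Hochberg adjustment and a threshold of 0.05. The script was tested on simulated data. Each SE was computed as the absolute log2 difference over the root of F. Alternatives used DESeq2 1.42.0 and limma 3.58.1. The members and lists were chosen with earlier results of these data known. Some genes are not reported here, and the list counts leave them out. Named genes were the members, list genes past the threshold or, where none was, up to 4 with the smallest p, Nppa, Acta1 and Nppb, features overlapping a member, and the 3 genes most like each member of at least 0.5 FPKM. Library numbers did not pair the samples. Intervals cover counting error only.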

Additional observations from a re-analysis of the deposited data

How the results depend on the processing

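The 6 members' log2 differences moved by less than 1 SD between libraries in all 14 other settings. That says little of stability, because leaving out 1 library of a group of 3 can hardly move its mean so far. Over those settings the log2 difference ran from -1.63 to -0.52 for Socs3, -1.16 to -0.56 for Osmr and -0.94 to -0.14 for Clcf1. It ran from 0.41 to 0.65 for Lifr, and changed sign for Il6st (-0.11 to 0.08) and Il11ra1 (-0.03 to 0.19). Over all genes, 217 passed (168 higher in the Sham libraries, 49 in the TAC libraries), against 338 (296 and 42) with totals unscaled, 432 without the filter and 1184 (706 and 478) with DESeq2. Leaving out 1 library gave 0 to 397 calls: 0 without TAC 1, 10 without TAC 2, 22 without TAC 3, 397 without Sham 1, 24 without Sham 2 and 40 without Sham 3. Of the members, DESeq2 called 1, and leaving out 1 library gave 0 to 3, 3 being without Sham 1, where 2.57% of all genes tested passed. DESeq2 called 2 relay genes, 1 inhibitor and 6 response genes, where it called 7.79% of all genes tested. Without the filter 2 of 22 response genes passed, beside 1.96% of all genes tested. With limma on log2(FPKM + 1) it was 1 of 20, beside 1.85%. With 1 library left out, 0 to 3 of 20 response genes passed, 3 being without Sham 1, where 2.57% of all genes tested passed. With 1 library left out, the log2 difference of Cntf ran from -2.33 to 0.13 (0.000553 without Sham 3), that of Il6ra from -0.21 to 0.12 (0.10 without Sham 1) and that of Cntfr from -0.25 to 0.74 (-0.07 without Sham 2). The cause was not tested. With the replicate number as a block 41 genes passed (40 and 1), none of them a member; the deviations of same-numbered libraries correlated at -0.136, -0.118 and -0.0959, so the number was not taken as a pairing. At 6 libraries, Il6, Il11 and Lif are limited by their counts.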
